A study of Mus musculus with 9 samples.

Results

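The disease-associated microglia genes examined here were 10 genes chosen by their symbols from the 54532 genes of the deposited expression table: *Trem2*, *Tyrobp*, *Apoe*, *Lpl*, *Cst7*, *Spp1*, *Gpnmb*, *Itgax*, *Clec7a* and *Axl*. All 10 were found in the table, and 9 of them passed the filter on low values and were among the 16123 genes tested. The exception was *Axl*. The RNA was that of BV2, a transformed microglial line of the mouse, and 9 libraries fell into 3 groups of 3. The control group was labelled normal and, according to the methods of the study, received complete medium with 10% serum. The OGD group underwent oxygen–glucose deprivation (OGD) in low-glucose medium with 4% serum under 4% oxygen, so serum, glucose and oxygen changed together. The third group, OGD_A_485 in the labels, was deprived in the presence of A-485, which blocks the acetyltransferase activity of P300. OGD lasted 24 h and A-485 was given at 50 μM in the experiments before the transcriptome, and neither is restated for it. No library held A-485 without OGD, so an action of A-485 on undeprived cells cannot be told apart from its action under OGD. BV2 is a single line without the other cells of the brain, and nothing in the labels says that the 3 libraries of a group came from separate cultures, so the p-values measure the spread between these libraries, which may be technical.

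Disease-associated microglia are a state that microglia take up around amyloid plaques, dying neurons and damaged myelin. The receptor TREM2 binds lipids, lipoproteins and cell debris, and its adaptor DAP12, encoded by *Tyrobp*, passes the signal to the kinase SYK. Microglia that enter the state raise genes for phagocytosis, lysosomes and lipid handling and lose genes of the homeostatic state. Entry is described in stages, with *Tyrobp* and *Apoe* rising early without TREM2, and *Lpl*, *Cst7*, *Axl*, *Itgax*, *Clec7a* and *Spp1* rising later when TREM2 is present.

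The reads on genes, recovered from the deposited values, ranged from 12593250 to 16091038 per library. The line was checked against 11 microglia and macrophage markers, of which 10 were tested. *Cd68* led them with a mean of 343 FPKM (read values scaled to gene length and to library depth). *Aif1*, which encodes Iba1, had means of 0.613, 0.889 and 2.57 FPKM in the control, OGD and A-485 groups, and *C1qa* had no reads in control or OGD. No marker of astrocytes, neurons or fibroblasts passed the filter, and 2 of 4 oligodendrocyte and 2 of 4 endothelial markers did, each with a mean under 1 FPKM.

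The members did not move as a block. With OGD, *Itgax*, *Spp1*, *Apoe* and *Clec7a* were called higher than in control and no member was called lower. With A-485 added to OGD, *Trem2*, *Tyrobp*, *Apoe*, *Gpnmb* and *Clec7a* were called higher than in OGD, between 2.10-fold and 3.04-fold, while *Spp1* fell to 0.348 and *Itgax* to 0.627 of the OGD level. *Lpl* was called in no comparison, *Cst7* only as lower with A-485 than in control, and *Axl* had at most 5 reads in any library. In bulk RNA, a change in every cell and a change in the share of cells that express a gene cannot be told apart. A gene was called where its unadjusted limma p-value was below 0.01 and its log2 fold change beyond 0.5 or -0.5, the thresholds of the study. Fold changes on the log2 scale refer to log2(FPKM + 0.1), with 95% intervals from limma, and adjusted p-values are Benjamini-Hochberg values over all genes tested.

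Of the 9 tested members, 4 were called higher with OGD and 0 lower, together 4 of 9, where 11.2% of all genes tested were called higher, 9.81% lower and 21% either way. Their adjusted p-value was under 0.05 in 5 of 9, against 45.3% of all genes, and the OGD and control libraries were apart in 5 of 9, against 55.4%, so both shares were near the background. With A-485 against OGD, 5 were called higher and 2 lower, together 7 of 9, where 12.2%, 13.4% and 25.7% of all genes were. The adjusted p-value was under 0.05 in 9 of 9 members, against 49.8% of all genes, and the libraries were apart in 9 of 9, against 56.8%. In the A-485 group against control, 5 were called higher and 2, *Spp1* and *Cst7*, lower, together 7 of 9, where 17%, 16.6% and 33.7% of all genes were. There 9 of 9 had an adjusted p-value under 0.05, against 56.6% of all genes, and 9 of 9 were apart, against 63.8%. The median log2 fold change of the 9 was 0.42 with OGD and 1.06 with A-485, where the median of all genes tested was 0.01 in each. These comparisons share libraries, and the OGD libraries enter the first as the numerator and the second as the denominator. With 3 libraries against 3, a two-sided exact permutation test cannot go below p = 0.1.

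**Figure D1:**
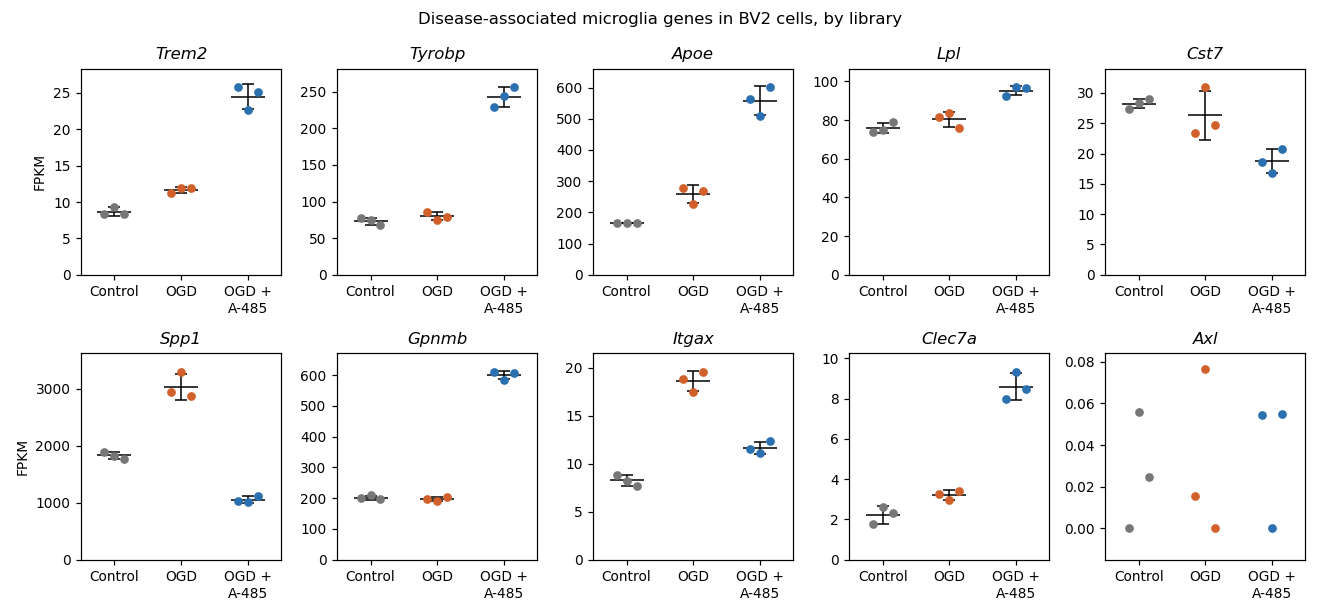
FPKM (y axis, a linear scale of its own for each gene) of the 10 members for the 3 groups (x axis: control, OGD, OGD + A-485). Each point is a library, and the bars give the mean and SD of 3 libraries, which are left out for *Axl*. *Trem2*, *Tyrobp*, *Apoe*, *Gpnmb* and *Clec7a* are highest in all 3 OGD + A-485 libraries, *Spp1* and *Itgax* are highest in all 3 OGD libraries, and *Axl* is at or below 0.0763 FPKM in every library.

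The start regions of 5 members are shown because these held a match to a motif that was searched, and because they belong to members that moved in opposite directions with A-485. RefSeq promoter windows of GRCm38.p6, from 250 bases before to 50 bases after the start site, were at hand for 8 of the 10 members in 12 windows, with no entry for *Tyrobp* and *Lpl*. The motifs were TGANTCA for AP-1, where N is any letter, and GGAAGT for the core of PU.1 and other ETS factors. CACGTG stood for the E-box bound by the MITF and TFE3 family, and ACGTG for the HIF core, which lies within the E-box. Both strands were searched. Each stretch runs 5′ to 3′ on the plus strand over 145 bases, of which the last 20 follow the start site, with the matched letters of AP-1 (TGANTCA) and of the PU.1 and ETS core (GGAAGT, or ACTTCC on the opposite strand) in capitals.
Trem2 (chr17:48346276-48346420): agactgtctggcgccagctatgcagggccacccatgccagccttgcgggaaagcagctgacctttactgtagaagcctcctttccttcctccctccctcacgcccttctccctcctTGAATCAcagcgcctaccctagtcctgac
Gpnmb (chr6:49036393-49036537): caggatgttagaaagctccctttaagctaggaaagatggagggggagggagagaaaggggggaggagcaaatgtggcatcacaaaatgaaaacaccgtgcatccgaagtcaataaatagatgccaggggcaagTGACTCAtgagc
Cst7 (chr2:150570290-150570434): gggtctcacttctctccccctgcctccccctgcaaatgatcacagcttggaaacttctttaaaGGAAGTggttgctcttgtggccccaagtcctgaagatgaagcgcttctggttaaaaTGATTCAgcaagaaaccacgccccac
Itgax (chr7:128129425-128129569): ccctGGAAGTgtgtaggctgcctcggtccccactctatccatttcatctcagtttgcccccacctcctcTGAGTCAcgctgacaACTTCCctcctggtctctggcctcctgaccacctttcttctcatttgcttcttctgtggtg
Spp1 (chr5:104434986-104435130): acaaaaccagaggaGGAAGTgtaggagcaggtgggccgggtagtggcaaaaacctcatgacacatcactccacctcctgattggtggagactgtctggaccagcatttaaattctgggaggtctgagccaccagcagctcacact

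TGANTCA, the AP-1 site with its centre letter left open, was found in *Trem2*, *Gpnmb*, *Cst7* and *Itgax*. That is in 4 of the 12 windows, and in 7.81% of all 32851 windows of the same length. The centre letter was C in *Gpnmb* and G in *Itgax*, as in the usual AP-1 site, but A in *Trem2* and T in *Cst7*. Windows with C or G there were not counted apart. The TGANTCA letters began 9 bases before the start site in *Trem2*, 6 before it in *Cst7*, 56 before it in *Itgax* and 8 after it in *Gpnmb*. The RefSeq start site of *Gpnmb* lies 28 bases upstream of the gene start in the deposited table. The PU.1 and ETS core was found in 3 of the 12 windows, those of *Cst7*, *Spp1* and *Itgax*, and in 23.8% of all windows. The E-box was in none of the 12 windows and in 7.15% of all, and the HIF core in none of the 12 and in 19.6% of all. Of the 4 members with TGANTCA letters, *Trem2* and *Gpnmb* rose with A-485, *Itgax* fell, and *Cst7* had a log2 fold change of -0.48 that was not called. These matches are a description of the letters, and no binding was measured in these libraries.

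*Trem2*, the lipid-sensing receptor (ENSMUSG00000023992, chromosome 17, 48346401 to 48354147 of GRCm38, plus strand), had 8.37, 9.34 and 8.35 FPKM in the control libraries, 11.2, 11.9 and 11.9 in those with OGD, and 25.8, 22.6 and 25.1 in those with A-485. The 3 groups did not overlap, and OGD + A-485 stood well above the other two. The change with OGD, from 8.69 ± 0.563 to 11.7 ± 0.374 FPKM (SD, n = 3), was 0.42 on the log2 scale (interval 0.28 to 0.57, adjusted p = 0.000699 from limma). It lay under the threshold on size and was not called. With A-485 *Trem2* rose 2.10-fold to 24.5 ± 1.67 FPKM (SD, n = 3), or 1.06 on the log2 scale (interval 0.91 to 1.21, adjusted p = 2.52e-06 from limma). The 50 tested genes nearest to it on the chromosome had a median change of 0.31, and once this was subtracted *Trem2* was at 0.75 and still called.

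*Tyrobp*, which encodes the adaptor DAP12 (ENSMUSG00000030579, chromosome 7, 30413760 to 30417585, plus strand), had 77.0, 74.9 and 67.5 FPKM in the control libraries, 86.3, 75.2 and 78.6 in those with OGD, and 229, 244 and 256 in those with A-485. The control and OGD libraries overlapped, and every OGD + A-485 library was far above both. The change with OGD was 0.13 (interval -0.03 to 0.29, adjusted p = 0.17 from limma). With A-485 it rose 3.03-fold, by 1.60 on the log2 scale (interval 1.44 to 1.76, adjusted p = 4.02e-07 from limma). Its neighbours had a median of 0.03. The ratio of *Tyrobp* to *Trem2* FPKM lay between 8.02 and 9.20 in control libraries, between 6.31 and 7.68 with OGD and between 8.87 and 10.8 with A-485, so the ranges of the control and A-485 libraries overlapped and that of the OGD libraries lay below both.

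*Clec7a* encodes Dectin-1, a β-glucan receptor that signals through SYK without DAP12 (ENSMUSG00000079293, chromosome 6, 129461591 to 129472779, minus strand). The deposited table and GENCODE M21 class it as a polymorphic pseudogene, a gene that is intact in some strains only. It had 1.76, 2.61 and 2.29 FPKM in the control libraries, 3.25, 2.97 and 3.42 in those with OGD, and 7.96, 9.31 and 8.49 in those with A-485, from 62 to 388 reads per library. The groups did not overlap, and the step with A-485 was the larger. With A-485 it rose 2.67-fold (log2 fold change 1.39, interval 1.08 to 1.70, adjusted p = 3.91e-05 from limma), and its neighbours had a median of 0.37. The rise with OGD, 0.53 (interval 0.22 to 0.84, adjusted p = 0.0115 from limma), lay just past the threshold. It was not called without control replicate 1 (0.38), without OGD replicate 1 (0.52) or without OGD replicate 3 (0.48), nor under 4 of the other alternatives.

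*Apoe* encodes apolipoprotein E, the main lipid carrier of the brain and a ligand of TREM2 (ENSMUSG00000002985, chromosome 7, 19696109 to 19699188, minus strand). It had 167, 165 and 166 FPKM in the control libraries, 280, 225 and 268 in those with OGD, and 564, 511 and 601 in those with A-485. It stepped up in each group without overlap. The log2 fold change was 0.63 with OGD (interval 0.43 to 0.82, limma, adjusted p = 0.000371) and 1.12 with A-485 (interval 0.92 to 1.31, adjusted p = 9.69e-06 from limma), and against control *Apoe* was 3.36-fold higher in OGD + A-485. The rise with OGD fell below the threshold on size under quantile normalization (0.46) and after subtracting its neighbours' median (0.42). *Apoe* went from rank 197 among the 16123 genes tested in control to rank 144 in OGD and rank 56 in OGD + A-485 by mean FPKM.

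*Lpl*, which encodes lipoprotein lipase, the enzyme that frees fatty acids from lipoprotein triglyceride (ENSMUSG00000015568, chromosome 8, 68880491 to 68907448, plus strand), had 73.8, 74.8 and 78.9 FPKM in the control libraries, 81.4, 83.8 and 76.0 in those with OGD, and 92.5, 96.9 and 96.4 in those with A-485. Control and OGD overlapped, and OGD + A-485 was above both by a small step. The log2 fold change was 0.08 with OGD (limma, adjusted p = 0.179) and 0.25 with A-485 (interval 0.14 to 0.35, adjusted p = 0.00199 from limma), in a gene with 10331 to 16045 reads per library. Neither change was called. The neighbours of *Lpl* had a median of 0.25 with A-485, and with it removed nothing of the change was left (-0.003).

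*Gpnmb*, a transmembrane glycoprotein of lysosomes and phagosomes (ENSMUSG00000029816, chromosome 6, 49036546 to 49070929, plus strand), had 199, 209 and 198 FPKM in the control libraries, 198, 189 and 205 in those with OGD, and 610, 585 and 606 in those with A-485. OGD and control overlapped, and the A-485 libraries stood far above both. The log2 fold change with OGD was -0.03 (interval -0.14 to 0.07, adjusted p = 0.569 from limma), and under quantile normalization it was -0.28 (adjusted p = 0.00144 from limma), also not called. With A-485 it rose 3.04-fold, by 1.61 on the log2 scale (SE 0.04, adjusted p = 3.79e-08 from limma), and its neighbours had a median of 0.11. In all, 3.66% of the genes tested rose as much as *Gpnmb* or more, itself included. Its SD was at most 3.88% of the mean in any group, the smallest upper limit among the 9 tested members.

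With A-485, *Spp1* moved against these genes, while with OGD it rose as *Apoe* and *Clec7a* did. *Spp1* encodes osteopontin, a secreted phosphoprotein that binds integrins and CD44 (ENSMUSG00000029304, chromosome 5, 104435118 to 104441050, plus strand). It had 1882, 1826 and 1774 FPKM in the control libraries, 2946, 3289 and 2867 in those with OGD, and 1026, 1013 and 1124 in those with A-485, with 24711 to 70562 reads per library. The order was OGD, then control, then OGD + A-485, with no overlap. With OGD it rose 1.66-fold (log2 fold change 0.73, interval 0.55 to 0.91, adjusted p = 9.2e-05 from limma). Under quantile normalization this rise was 0.28 and was not called. With A-485 it fell by 1.52 on the log2 scale (interval -1.70 to -1.34, adjusted p = 9.9e-07 from limma), and in OGD + A-485 it was 0.577 of the control level (adjusted p = 2.94e-05 from limma). *Spp1* alone took a mean of 0.315% of all reads on genes in the control libraries, 0.505% with OGD and 0.168% with A-485. The gene Gm42793, with a mean of 6.08 FPKM, shares 309 exonic bases with *Spp1* on the same strand, and how the counting treated reads in them is not given in the sources used here. The FPKM ratio of *Spp1* to *Gpnmb* was 9.05 ± 0.365 in the control libraries, 15.4 ± 1.74 with OGD and 1.76 ± 0.0885 with A-485 (SD, n = 3).

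*Itgax*, which encodes the integrin subunit CD11c (ENSMUSG00000030789, chromosome 7, 128129547 to 128150657, plus strand), had 8.85, 8.23 and 7.73 FPKM in the control libraries, 18.8, 17.5 and 19.5 in those with OGD, and 11.5, 11.1 and 12.4 in those with A-485. The groups did not overlap, with OGD highest and OGD + A-485 between. The rise with OGD was 2.25-fold (log2 fold change 1.16, interval 1.01 to 1.32, adjusted p = 3.3e-06 from limma), the largest of the members, and 5.66% of the genes tested rose as much or more, itself included. With A-485 *Itgax* fell by 0.67 (interval -0.82 to -0.52, adjusted p = 4.67e-05 from limma). Against control, the A-485 libraries were at 0.49 (limma, adjusted p = 0.000219), which missed the threshold on size, and this was called in 6 of 21 alternatives, among them those without control replicate 1 (0.54), without OGD + A-485 replicate 1 (0.50) and without OGD + A-485 replicate 2 (0.53).

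*Cst7*, which encodes cystatin F, an inhibitor of lysosomal cysteine proteases such as cathepsin C (ENSMUSG00000068129, chromosome 2, 150570415 to 150578944, plus strand), had 27.4, 28.3 and 29.0 FPKM in the control libraries, 23.3, 30.9 and 24.7 in those with OGD, and 18.6, 16.8 and 20.8 in those with A-485. The OGD libraries spread around the control libraries, and all 3 OGD + A-485 libraries were lower than both. The log2 fold change was -0.11 with OGD (limma, adjusted p = 0.448) and -0.48 with A-485 (interval -0.73 to -0.24, adjusted p = 0.00526 from limma). The value with OGD ranged from -0.03 without OGD replicate 1 and -0.07 without OGD replicate 3 to -0.23 without OGD replicate 2, and was called in none of these. That with A-485 was not called, and it was called without OGD replicate 1 (-0.56), without OGD replicate 3 (-0.52), without OGD + A-485 replicate 3 (-0.56), when scaled to library totals (-0.55) and under quantile normalization (-0.56). Against control, *Cst7* was called lower in OGD + A-485, at -0.59 (adjusted p = 0.00135 from limma), and after subtracting its neighbours' median it was at -0.38 and not called.

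*Axl*, a receptor tyrosine kinase that recognises phosphatidylserine on dying cells through its ligand GAS6 (ENSMUSG00000002602, chromosome 7, 25757273 to 25788705, minus strand), rested on 0, 4 and 2 reads in control, 1, 5 and 0 in OGD, and 4, 0 and 4 in OGD + A-485. These are too few to compare. In the 3 libraries at 0, a count of 0 allows up to 3 reads, or between 0.0377 and 0.0446 FPKM, with counting error only. Its relative *Mertk*, chosen after its values were seen, averaged 0.36 ± 0.0612 FPKM in control libraries, 0.55 ± 0.0804 with OGD and 1.46 ± 0.185 with A-485 (SD, n = 3), a called rise of 1.27 over OGD, with 83 to 106 reads per A-485 library. *Tyro3* and *Gas6*, also chosen after their values were seen, had at most 2 and 5 reads in any library.

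**Figure D2:**
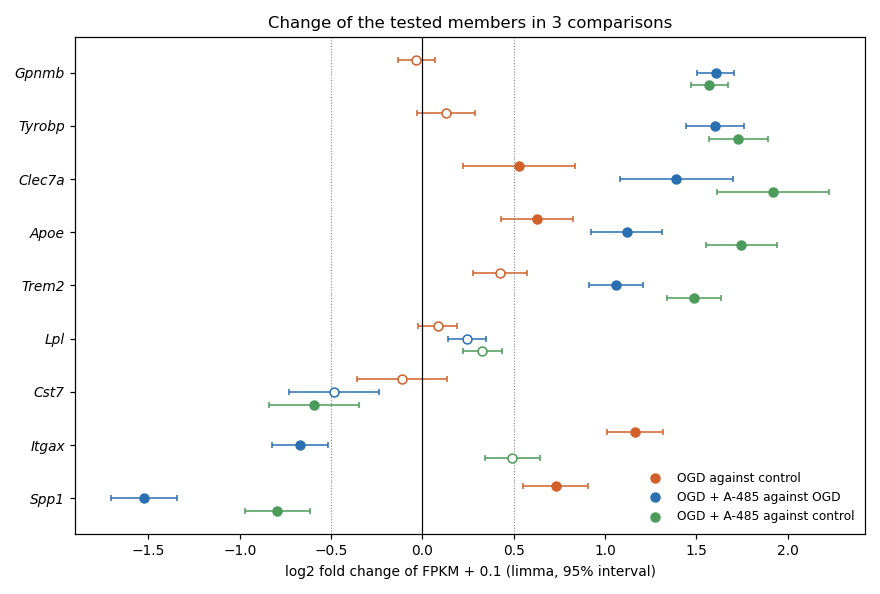
Log2 fold change of FPKM + 0.1 (x axis) of the 9 tested members (y axis) for OGD against control (orange), OGD + A-485 against OGD (blue) and OGD + A-485 against control (green), with 95% intervals from limma. Filled points were called, open points were not, and the dotted lines mark 0.5 and -0.5. *Gpnmb*, *Tyrobp*, *Clec7a*, *Apoe* and *Trem2* lie to the right with A-485 (1.06 to 1.61), and *Spp1* (-1.52) and *Itgax* (-0.67) to the left.

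*Spp1* had the highest level of the members in every group, at rank 7, 6 and 19 among all genes tested in control, OGD and OGD + A-485. In control it was followed by *Gpnmb*, *Apoe*, *Lpl*, *Tyrobp*, *Cst7*, *Trem2*, *Itgax*, *Clec7a* and *Axl* on the FPKM scale. *Lpl* and *Tyrobp* overlapped there, as did *Trem2* and *Itgax*, and all other neighbours in the order were apart. In OGD + A-485 *Gpnmb* and *Apoe* overlapped, and *Tyrobp* was above *Lpl* and *Trem2* above *Cst7* without overlap. These levels depend on the gene length the authors divided by. For *Trem2* that length was 4946 bases and includes a transcript with a retained intron, whereas its longest protein-coding transcript in GENCODE M21 has 1088 bases. Per that length, *Trem2* was at 39.5, 53.1 and 111 in the 3 groups in place of 8.69, 11.7 and 24.5 FPKM, and its place among the members was 6 in each group. *Lpl*, with 10478 against 4115 bases, was at 193, 205 and 243 per coding length. Fold changes between groups do not depend on the length except through the added 0.1 FPKM.

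Of 18 genes of TREM2, DAP12 and Dectin-1 signalling, all tested, 4 were called higher with OGD and 0 lower, where 11.2% and 9.81% of all genes were. With A-485 against OGD 8 were called higher and 0 lower, where 12.2% and 13.4% of all genes were. The median log2 fold change with A-485 was 0.38. *Sirpb1a* and *Ms4a7*, 2 of the 8 and named after their values were seen, passed the filter on low values only through the A-485 libraries, so they could enter only as rises. Without both, 6 of 16 were called higher and the median was 0.27. *Syk*, the kinase downstream of both receptors, rose from 16.9 ± 0.787 to 33.6 ± 1.43 FPKM with A-485 (SD, n = 3), or 0.98 on the log2 scale (limma, adjusted p = 1.45e-06). *Pik3r1*, a regulatory subunit of PI3-kinase, rose by 1.28 and *Ms4a6d*, a membrane protein of the family linked to soluble TREM2, by 3.51 from 4 to 8 reads per library in OGD to 96 to 121. *Ms4a6d* averaged 0.294 FPKM in control and 0.274 with OGD. It reached the mean of 1 FPKM required for naming only through the A-485 libraries, so it could be named only as a rise. With OGD, the genes with the largest rises were *Lat2* (0.63), an adaptor of immune receptors, *Bcl10* (0.58), which links CARD9 to NF-κB, and *Hcst* (0.58), which encodes the adaptor DAP10.

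Of 22 ligands, receptors and protease targets of the members, 17 were tested. With OGD, 6 were called higher and 0 lower, where 11.2% and 9.81% of all genes tested were. With A-485 against OGD, 5 were called higher and 3 lower, where 12.2% and 13.4% of all genes tested were. The part called lower was near the share of all genes. *Itgb3*, the β3 integrin subunit of an osteopontin receptor, was highest with OGD and lowest with A-485, the order *Spp1* had. It went from 2.90 ± 0.319 FPKM in control libraries to 7.67 ± 0.624 with OGD and 0.367 ± 0.0201 with A-485 (SD, n = 3), log2 fold changes of 1.38 with OGD and -4.05 with the inhibitor (adjusted p = 1.78e-05 and 3.79e-08 from limma). *Itgav*, *Itgb1*, *Itgb5* and *Cd44*, of the same list and named after their values were seen, did not have this order. *Itgav* and *Cd44* were highest with OGD and lowest in control, and *Itgb1* and *Itgb5* were highest with A-485. *Itgb2*, which encodes CD18, the partner chain of CD11c, rose by 1.20 with OGD as *Itgax* did. It was at 104 ± 1.83 FPKM in OGD + A-485 against 73.7 ± 3.14 in OGD (SD, n = 3). This rise of 0.496 on the log2 scale missed the threshold on size and was not called, whereas *Itgax* was called lower. *Itga5*, the fibronectin receptor subunit, rose by 1.18 with OGD. Of the 3 cysteine cathepsins in the list, *Ctsc* and *Ctsh* rose with A-485 and *Ctsl*, named after its values were seen, was at 0.31 and not called. *Ctsc*, cathepsin C, went from 17.9 ± 0.739 to 53.3 ± 2.01 FPKM, and *Ctsh*, cathepsin H, from 0.588 ± 0.131 to 10.8 ± 0.191 (SD, n = 3). *Ctsh*, at 0.577 FPKM in control, reached the mean of 1 FPKM required for naming only through the A-485 libraries. It could thus be named only as a rise. Among the receptors of apolipoprotein E, *Lrp1* rose by 0.59 with A-485, while *Lrp8* fell by 0.65.

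Among 45 other genes of the programme, 41 were tested. With OGD, 15 were called higher and 2 lower, where 11.2% and 9.81% of all genes were. With A-485 against OGD 21 were called higher and 7 lower, where 12.2% and 13.4% of all genes were. The medians were 0.24 and 0.50. Of the 41, *Apoc1* and *Atp6v0d2*, named after their values were seen, passed the filter only through the group where they were highest. Without both, 21 were called higher and 6 lower with A-485. The largest rise was that of *Lyz2*, lysozyme, from 39.8 ± 1.94 FPKM in control libraries to 93.3 ± 2.91 with OGD and 1698 ± 72.8 with A-485 (SD, n = 3), a rise of 4.18 with A-485 on the log2 scale (limma, adjusted p = 1.17e-09). *Lyz2* has a close paralog, *Lyz1*, and how reads shared between them were counted is not given in the sources used here. *Ctsk*, the collagen-degrading cathepsin K, rose by 3.30 and the growth factor *Igf1* by 2.92. The chemokine genes *Ccl3* and *Ccl4* had the direction of *Spp1* in both comparisons, with rises of 1.18 and 1.04 with OGD and falls of 1.38 and 1.66 with A-485. *Mamdc2* fell by 1.33 with A-485. *Lilrb4a*, an inhibitory receptor, had the largest rise with OGD, from 43.0 ± 1.02 to 145 ± 24.6 FPKM (SD, n = 3). The 2 genes lowered by OGD were *Abcg1*, a sterol exporter, at -0.64, and *Fabp3*, a fatty acid binding protein, at -0.51.

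**Figure D3:**
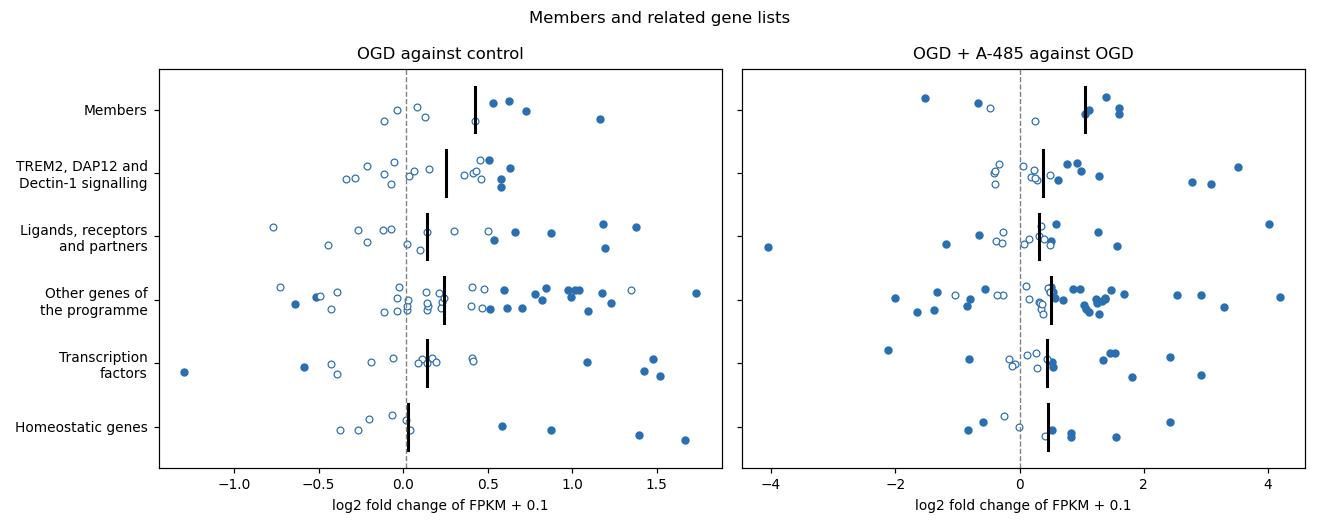
Log2 fold change of FPKM + 0.1 (x axis) of the tested members and of the tested genes in 5 related lists (y axis), for OGD against control (left) and OGD + A-485 against OGD (right). Each point is a gene, filled where called, the black bars are the medians of the lists and the dashed line is the median of all genes tested. With A-485 the medians run from 0.31 for ligands, receptors and partners to 1.06 for the members, against 0.01 for all genes, and every list holds genes that were called lower except the signalling list. Without *Sirpb1a* and *Ms4a7*, which passed the filter only through the A-485 libraries, the signalling list has the lowest median, 0.27. Without *Fcrls*, which passed in the same way, the homeostatic list is at 0.41.

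Of 20 transcription factors linked to the programme, 17 were tested. With OGD, 4 were called higher and 2 lower, where 11.2% and 9.81% of all genes were. The part called lower with OGD was near the share of all genes. With A-485 against OGD 8 were called higher and 2 lower, where 12.2% and 13.4% of all genes were, so the part called lower was near that share. *Maf* rose by 2.92 and *Cebpa* by 2.43. *Mitf*, which drives *Gpnmb* in pigment cells and osteoclasts, fell by 0.81. Its relatives *Tfeb* and *Tfe3*, named after their values were seen, rose by 1.46 and 0.54. With OGD, *Bhlhe40* and *Bhlhe41*, repressors that act on lysosomal and lipid genes of microglia, rose by 1.52 and 1.48 and the stress factor *Atf3* by 1.42, while *Cebpa* fell by 1.30 and *Rxra* by 0.58.

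Of 18 genes of the homeostatic state, 10 passed the filter. With OGD, 4 of these were called higher and 0 lower, where 11.2% and 9.81% of all genes were. The part called lower, 0 of 10, lay near the share of all genes. Those called higher included the fractalkine receptor *Cx3cr1* (1.39) and *Csf1r*, the receptor for CSF1 (0.88). With A-485 against OGD, 5 were called higher and 2, *Mef2c* (-0.83) and *Trem3* (-0.59), lower, where 12.2% and 13.4% of all genes were. *Fcrls*, 1 of the 5 and named after its values were seen, passed the filter only through the A-485 libraries, and without it 4 of 9 were called higher. *Csf1r* went from 44.6 ± 0.987 to 131 ± 2.58 FPKM and *Cx3cr1* from 15.7 ± 1.21 to 27.8 ± 0.984 (SD, n = 3), and *Cst3*, cystatin C, rose by 0.83. *P2ry12*, which defines resting microglia and was chosen here after its values were seen, had at most 12 reads in any library.

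General macrophage markers moved with the members that A-485 raised. Of the 10 tested, 8 were called higher with A-485 than with OGD alone and 0 lower, where 12.2% and 13.4% of all genes were. *Cd68*, *Csf1r*, *Mertk*, *Spi1* and *Irf8* also belong to the lists above, so these markers are not a separate set. The summed level of the 11 markers was from 413.5 to 424.5 FPKM in control libraries, from 459.6 to 488.6 with OGD and from 861.7 to 904.4 with A-485. *Cd68* held most of this sum in control and OGD, with means of 277 and 306 FPKM, and had 445 FPKM with A-485. The part of these markers in the rise of *Trem2*, *Tyrobp*, *Apoe*, *Gpnmb* and *Clec7a* was not tested.

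The genes whose pattern over the 9 libraries was most like that of a member were sought among 10038 protein-coding genes averaging 1 FPKM or more, by Pearson's r of log2(FPKM + 0.1), as a description. The 9 libraries fall into 3 groups that set most of r, and the genes above r = 0.95 numbered 728 for *Trem2*, 636 for *Gpnmb* and 13 for *Cst7*. The closest to *Trem2* were *Slc11a2*, *Atp6v0d1* and *Unc93b1* (r = 0.998 each). Those closest to *Tyrobp* were *Ctsb*, *Ctss* and *Smoc1*, to *Apoe* *Icam1*, *Plpp3* and *Cotl1*, and to *Gpnmb* *Znfx1*, *Mpeg1* and *Chrna9*. *Clec7a* was closest to *Cerk*, *Traf3ip3* and *Arhgap10*, and *Lpl* to *Clec4e*, *Cdc42* and *Hmga2*. The closest to *Spp1* were *Spink5*, *Osbp2* and *Ell2*, to *Itgax* *Junb*, *Plscr1* and *Lims2*, and to *Cst7* *Adora2b*, *Mindy3* and *Eefsec*.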

How the data were processed

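BV2 RNA was sequenced in 3 groups of 3 libraries, assigned by the sample titles. According to the methods of the study, the authors discarded adapter, N-containing and low-quality reads, counted the rest on genes with featureCounts, and computed the deposited FPKM from count and gene length. The labels name the builds GRCm38 and mm10. The aligner and the annotation release are not given in the sources used here. FPKM times gene length was a whole multiple of a fixed unit per library, within 0.01 reads for 100% of values up to 1000 reads, which gave the reads. The unit was not set by the read total of the library.

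Genes averaging 0.2 FPKM or more entered a limma 3.58.1 fit (R 4.3.3) of log2(FPKM + 0.1), with 1 mean per group over all 9 libraries and a trended prior variance. The authors' DESeq2 test was not repeated. limma-voom on the recovered reads was an alternative. Same-numbered libraries did not deviate together (mean correlation -0.0023), and no libraries were identical.

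The members, gene lists and motifs were chosen with earlier results of these data known. Named genes are all members, the up to 3 called genes with the largest rise and fall per list and comparison among genes averaging 1 FPKM or more, and the 3 genes most like each member. Genes outside this rule are marked, except the markers of the line. Some genes that the rule names are not reported here. Other steps used scipy 1.17.1, pandas 2.3.3, numpy 2.4.6 and, for plots, matplotlib 3.10.9 under Python 3.11.15. Alternatives were other pseudocounts, filters and scalings, fewer groups in the fit, no trend, an adjusted p-value under 0.05, the replicate number as a block, subtraction of the neighbouring genes' median, and each library left out.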

Additional observations from a re-analysis of the deposited data

How the results depend on the processing

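When the log2 fold changes of the 9 tested members were recomputed under 21 alternatives in the 3 comparisons, 545 values kept their side of the threshold, 11 lost the call and 11 gained it. The sign turned in 1 value, that of *Lpl* with A-485 against OGD, which was not called and went from 0.25 to -0.003 with the median of neighbouring genes removed. Under quantile normalization 1 member, *Itgax*, was called higher with OGD in place of 4. With the median of neighbouring genes removed, 1 member was called lower in OGD + A-485 against control in place of 2. The causes were not tested. Leaving out single libraries, the members called higher with OGD numbered 3 to 4, and with A-485 against OGD 5 higher and 2 to 3 lower. In a fit with replicate number as block, 1740 genes were called higher and 1548 lower with OGD (1803 and 1581 without it), 1937 higher and 2109 lower with A-485 against OGD (1974 and 2165 without it), and the block changed no call of a member. The same-numbered libraries share only a number. Scaling to library totals moved the median of all genes in OGD + A-485 against control by -0.10, and the genes called there numbered 2253 higher and 3350 lower in place of 2747 and 2684. A single read on 1 kb of gene was worth 0.0618 to 0.0786 FPKM, which leaves *Axl* out of any comparison.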
